A study of Mus musculus with 52 samples.

Results

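The promoters of 10 genes that rise as mouse embryonic stem cells (mESCs) leave naive pluripotency were examined for chromatin accessibility, measured by calibrated ATAC-seq (cATAC-seq) with and without removal of KDM2 protein domains. The genes were Otx2, Fgf5, Pou3f1, Sall2, Zic2, Zic5, Cd24a, Pim2, Etv4 and Grhl2. They were chosen as genes raised on exit from the naive state, and Otx2 was chosen also for its lower signal in 1 of the lines described here, Kdm2a/b-CXXC. The deposited RefSeq identifiers matched 13 promoter intervals of these 10 genes, of 20633 intervals in all, which belong to 19237 genes with a symbol. Otx2 had 3 intervals, Sall2 had 2 and the other genes had 1 each. All 13 passed the filter on low values in every line.

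ATAC-seq marks accessible DNA with the Tn5 transposase, and Drosophila SG4 cells were added before tagging so that mouse reads could be scaled to a constant reference. There were 4 mESC lines, each with loxP sites around exons of Kdm2a, Kdm2b or both and a Rosa26 CreERT2 recombinase that tamoxifen activates, grown in serum with LIF. In Kdm2a/b-JmjC fl/fl cells the exons for the JmjC histone demethylase domain of both proteins are removed. The paper reports that this removes the long forms of KDM2A and KDM2B as a whole. It reports the short forms, which lack JmjC and keep the ZF-CxxC DNA binding domain, as unaffected. In Kdm2a/b-CXXC fl/fl cells the exon for the ZF-CxxC domain, which binds non-methylated CpG, is removed from both, and the Kdm2a-CXXC fl/fl line and the Kdm2b-CXXC fl/fl line lose it from the protein named only. The Kdm2a/b-CXXC line was made by CRISPR editing of Kdm2b-CXXC fl/fl cells, and the Kdm2a-CXXC line by editing of Rosa26 CreERT2 cells, so these lines passed through separate editing and selection steps. Untreated cells were compared with cells given tamoxifen (4-hydroxytamoxifen, 800 nM, 96 h), with 3 ATAC libraries per group in 3 lines and 4 per group in Kdm2a/b-CXXC, 26 in all. No tamoxifen-treated line without loxP sites was analysed here, so an effect of tamoxifen or CRE alone cannot be told apart from the deletion. Promoter intervals do not read out the deleted exons, so the deletion itself was not checked.

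Embryonic stem cells in serum and LIF hold a naive or near-naive identity, sustained by factors such as Nanog, Klf4, Esrrb and Prdm14. As they leave it they pass through a formative state, in which the cells become competent for lineage choice, and then a primed state like that of the egg cylinder epiblast. Otx2, a homeodomain factor, helps to open the enhancers of the formative state together with the pluripotency factor Oct4, and Fgf5, a secreted growth factor, is the classical marker of cells that have made the step. Most of these genes have CpG island promoters, the sites to which KDM2 proteins are targeted.

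Promoter reads totalled 1.49 to 3.03 M per library (M, 1000000), and the middle promoter of a library was covered by 58 to 108 of them. Calibrated reads are reads divided by a library's spike-in size factor, and they were compared only within a line because each line was calibrated separately. Between lines, reads per M promoter reads (RPM) or a promoter's percentile among all promoters of its library were used. Among marker genes, 7 of 8 embryonic stem cell genes were matched and lay at median percentiles of 41.5 to 90.4 in untreated cells. The markers of fibroblasts (26.6 to 45.8, 5 genes), mesoderm (29.7 to 39.0, 3 genes), primitive endoderm (31.4 to 54.4, 5 genes) and trophoblast (27.9 to 52.3, 4 genes) ranged lower but overlapped with them. Promoter accessibility thus did not separate the marker lists fully, and other cell types in the cultures were not tested. The study's methods call the replicates biological, and the labels do not say how they were obtained, so p-values measure the spread between these libraries.

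The sequences just upstream of 5 of the 13 start sites are shown to make visible how differently the promoters are built, because the domain removed in 3 of the lines recognises CpG. Each line gives 200 bases, 5′ to 3′ on the gene's strand, from RefSeq on GRCm38.p6, the same build as the mm10 coordinates of the deposited intervals. Capitals mark CpG dinucleotides. The windows are chr14:48662735-48662934 (minus strand) for Otx2 downstream, chr14:48667645-48667844 (minus) for Otx2 upstream, chr14:52328671-52328870 (minus) for Sall2 upstream, chr5:98253984-98254183 (plus) for Fgf5 and chr14:122465659-122465858 (minus) for Zic5.
Otx2 downstream: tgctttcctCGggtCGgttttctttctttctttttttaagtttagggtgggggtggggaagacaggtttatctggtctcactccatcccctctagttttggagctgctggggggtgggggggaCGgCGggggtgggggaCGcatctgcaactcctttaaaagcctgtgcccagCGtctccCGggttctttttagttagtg
Otx2 upstream: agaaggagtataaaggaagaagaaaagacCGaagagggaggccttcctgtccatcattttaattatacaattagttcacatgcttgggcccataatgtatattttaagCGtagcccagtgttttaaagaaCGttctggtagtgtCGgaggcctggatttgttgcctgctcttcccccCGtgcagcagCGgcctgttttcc
Sall2 upstream: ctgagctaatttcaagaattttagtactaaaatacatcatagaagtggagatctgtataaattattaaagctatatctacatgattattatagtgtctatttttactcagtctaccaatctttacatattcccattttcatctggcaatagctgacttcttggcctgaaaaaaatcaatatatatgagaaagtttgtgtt
Fgf5: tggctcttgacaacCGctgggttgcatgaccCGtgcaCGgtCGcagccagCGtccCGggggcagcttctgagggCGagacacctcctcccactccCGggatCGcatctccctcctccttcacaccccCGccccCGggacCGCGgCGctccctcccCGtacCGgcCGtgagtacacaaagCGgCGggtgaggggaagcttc
Zic5: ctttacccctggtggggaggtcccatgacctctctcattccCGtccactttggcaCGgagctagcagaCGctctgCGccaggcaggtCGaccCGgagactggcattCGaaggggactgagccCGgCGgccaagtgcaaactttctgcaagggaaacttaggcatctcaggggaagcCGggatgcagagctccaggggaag

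The Fgf5 window held 19 CpG and that of Sall2 upstream held 0. Between them lay Otx2 upstream with 6, Otx2 downstream with 7 and Zic5 with 10. Over the 32851 RefSeq windows of this kind the median was 5, and 85.6% held fewer CpG than Fgf5, 65.8% fewer than Zic5 and 57.5% fewer than Otx2 downstream. A window was found for 8 of the 13 promoters, and the others, not printed here, held 9 (Otx2 middle), 6 (Sall2 downstream) and 15 (Pim2). Over the whole 400 bp interval, 9 of the 13 were CpG-rich, defined by 50% GC or more with CpG at 0.6 or more of the number that base composition predicts (the observed to expected ratio), against 54.6% of the 20630 promoters with sequence. The median observed to expected ratio was 0.80 for the 13 and 0.67 for all promoters, and the median number of CpG was 24 for both. Pou3f1 was the richest, with 69 CpG and 82.75% GC, and Sall2 upstream the poorest, with 4 CpG and 38.25% GC.

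All 13 intervals lie at annotated transcription start sites. The 3 Otx2 intervals lie close to each other on the minus strand of chromosome 14, at 48662673 to 48663072 (downstream, NM_144841), 48664910 to 48665309 (middle, NM_001286483) and 48667445 to 48667844 (upstream, NM_001286481). Otx2 downstream and upstream held 11 and 10 CpG at observed to expected ratios of 0.46 and 0.47, below the CpG-rich limit. The middle interval, with 22 CpG and a ratio of 0.82, was above it. Sall2, a spalt-like zinc finger factor, has intervals on the same chromosome at 52316124 to 52316523 (downstream, NM_001244916, 23 CpG) and 52328471 to 52328870 (upstream, NM_015772). Zic5 (NM_022987, 122465459 to 122465858) and Zic2 (NM_009574, 122475184 to 122475583), neighbouring zinc finger genes, lie near the end of chromosome 14. The remaining intervals are those of Fgf5 on chromosome 5 (NM_001277268, 98253984 to 98254383), Pou3f1 on chromosome 4 (NM_011141, 124657446 to 124657845), Cd24a on chromosome 10 (NM_009846, 43578969 to 43579368), Pim2 on chromosome X (NM_138606, 7878106 to 7878505), Etv4 on chromosome 11 (NM_008815, 101785111 to 101785510) and Grhl2 on chromosome 15 (NM_026496, 37232836 to 37233235).

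Accessibility, taken over all 26 untreated and treated libraries, differed widely between these promoters. Etv4, an ETS factor that acts downstream of FGF signalling, was the most accessible, at the 97.8 percentile of all promoters (median over 26 libraries, range 95.5 to 99.1) and a median of 156 RPM. No other promoter of the 13 overlapped with it in any library. Pou3f1, a POU factor of the epiblast, followed at 71.6 (59.2 to 82.2), then the kinase gene Pim2 at 64.4 (56.2 to 75.7), Zic2 at 61.3 (41.3 to 74.2) and Zic5 at 58.2 (33.2 to 69.5). Grhl2, a factor of epithelial enhancers, lay at 54.8 (45.6 to 64.8), Cd24a, which encodes a surface glycoprotein, at 50.5 (44.0 to 61.8) and Sall2 downstream at 48.0 (37.9 to 64.2). These 7 formed a continuous order in which each promoter's range overlapped with that of its neighbours.

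Otx2 and Fgf5 were among the least accessible of the set. Fgf5 lay at the 41.7 percentile (36.5 to 50.6, median 27.0 RPM), Otx2 downstream at 41.1 (27.4 to 51.9, 26.6 RPM) and Otx2 middle at 40.2 (33.9 to 45.8, 24.9 RPM), and these 3 overlapped. Otx2 upstream lay at 27.2 (13.4 to 33.0, 10.1 RPM) and Sall2 upstream at 23.3 (13.5 to 30.3, 7.71 RPM). They overlapped with each other and with the lowest libraries of Otx2 downstream, and with none of the rest. Those lowest libraries were treated ones of Kdm2a/b-CXXC, whose values chose the gene. In Kdm2a/b-CXXC treated replicate 2, Otx2 downstream and upstream both had 20 reads. A library held between 7 and 32 reads for Otx2 upstream and between 230 and 448 for Etv4, so the counting error is far wider for the first. All intervals are 400 bp long, so these levels are compared at equal length.

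**Figure D1:**
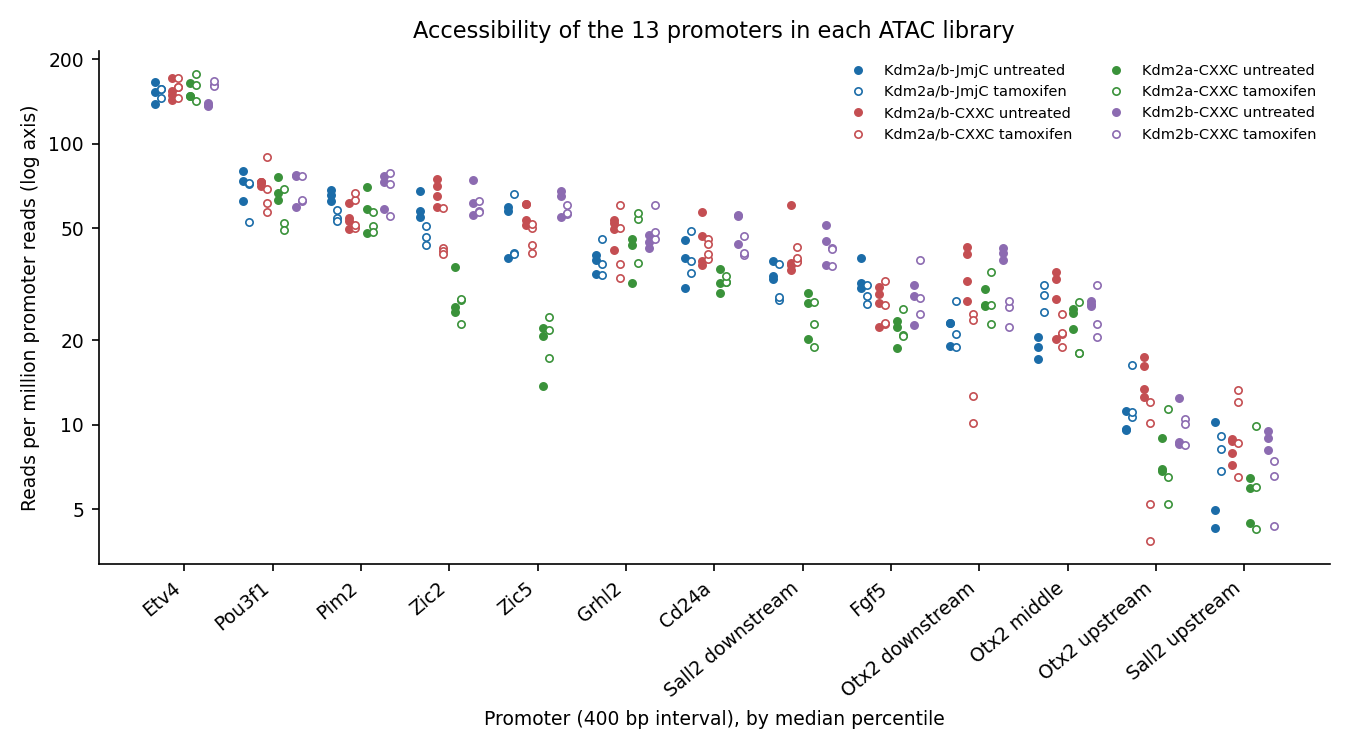
RPM (vertical log axis) of the 13 promoters in each of the 26 ATAC libraries, ordered by median percentile, with filled points for untreated and open points for tamoxifen-treated libraries, coloured by line. Etv4 stood above all others at a median of 156 RPM, Otx2 upstream and Sall2 upstream lay lowest at 10.1 and 7.71 RPM, and the Kdm2a-CXXC libraries lay apart at Zic2 and Zic5.

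The Otx2 promoters were described first in Kdm2a/b-CXXC, the line whose values chose the gene, so no test is given for them there. Otx2 downstream had 40.5, 50.8, 67.5 and 59.1 calibrated reads in the untreated libraries and 25.9, 17.0, 37.2 and 31.3 after tamoxifen. The groups did not overlap, and the mean went from 54.5 ± 11.5 (SD, n = 4) to 27.8 ± 8.58 (SD, n = 4), which is 51.1% of the untreated level. Otx2 upstream had 25.7, 20.9, 25.3 and 18.4 calibrated reads untreated and 7.9, 17.0, 7.8 and 16.0 after tamoxifen. This is 54.0% of the untreated level, again without overlap. Of all promoters tested in this line, 0.597% were separated downwards in calibrated reads. The separation of the Otx2 intervals is no support for a change, because these values chose the gene. Between these intervals, Otx2 middle had 29.6, 54.8, 44.0 and 48.4 calibrated reads untreated and 42.8, 41.6, 28.4 and 28.1 after tamoxifen, so its groups overlapped. The log2 fold changes were -0.97, -0.91 and -0.31 for downstream, upstream and middle. The mean of Otx2 middle after tamoxifen was 79.6% of its untreated level. All 3 intervals thus had lower means, and the difference between the CpG-poor outer intervals and the CpG-rich middle one was not tested.

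On a relative scale, trimmed mean of M-values (TMM) scaling of the reads in place of the spike-in, the same log2 fold changes were -1.06, -0.99 and -0.40. Reads behind these values were few, 41 to 72 per untreated library and 20 to 39 per treated library at Otx2 downstream, and 19 to 27 and 7 to 20 at Otx2 upstream. In bulk samples, a lower signal in every cell and a loss from part of the cells cannot be told apart.

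In Kdm2b-CXXC, which shares the Kdm2b allele with the double line and was not used to choose Otx2, the downstream interval was lower in relative terms. It had 40.9, 38.5 and 42.7 RPM untreated and 26.2, 22.4 and 27.5 RPM after tamoxifen, 62.2% of the untreated level. The groups did not overlap on this scale, nor on the TMM scale, where 6.3% of all promoters were separated downwards. The TMM log2 fold change was -0.68 (SE 0.18, unadjusted p = 0.000299, limma), and the adjusted p over all promoters was 0.198, so the difference did not pass the threshold. In calibrated reads the untreated libraries had 121.0, 67.3 and 90.4 and the treated ones 83.6, 44.4 and 58.0, which overlap, for which limma gave -0.58 on the log2 scale (SE 0.37, adjusted p = 1.00). These values are listed by replicate number, and each treated library lay below the untreated one of the same number. That fit does not use the numbers, and a fit that includes them also left 0 changed members in this line. Spike-in scaling varied most in this line, where the median SE of a log2 fold change over all promoters was 0.37 on the calibrated and 0.15 on the TMM scale. The other intervals of Otx2 had TMM log2 fold changes of -0.14 (middle) and -0.02 (upstream).

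In Kdm2a-CXXC the Otx2 values overlapped at all 3 intervals, with 56.4, 70.0 and 66.9 calibrated reads untreated against 40.1, 71.6 and 62.2 after tamoxifen at the downstream one (log2 fold change -0.18, SE 0.24, limma adjusted p = 0.771). On the TMM scale that difference was -0.01. Kdm2a/b-JmjC had 41.8, 36.3 and 41.2 calibrated reads at Otx2 downstream untreated and 32.0, 31.3 and 43.0 after tamoxifen (log2 fold change -0.17, SE 0.27, limma adjusted p = 0.730). Otx2 middle in this line went the other way, from 37.3, 32.6 and 33.9 to 49.1, 37.6 and 49.1 calibrated reads. Its groups did not overlap, but the log2 fold change of 0.37 (SE 0.27) had a limma adjusted p of 0.417, and 0.58 on the TMM scale had one of 0.871. Before treatment, Otx2 downstream was lower in Kdm2a/b-JmjC than in every untreated library of the other lines (19.1 to 23.1 RPM), as were 1.56% of 17110 promoters in that line. Otx2 upstream was higher in untreated Kdm2a/b-CXXC than in every other untreated library (12.6 to 17.5 RPM), as were 2.22% of promoters there. The fall of Otx2 in the double line was not compared between lines by a test, because it chose the gene.

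**Figure D2:**
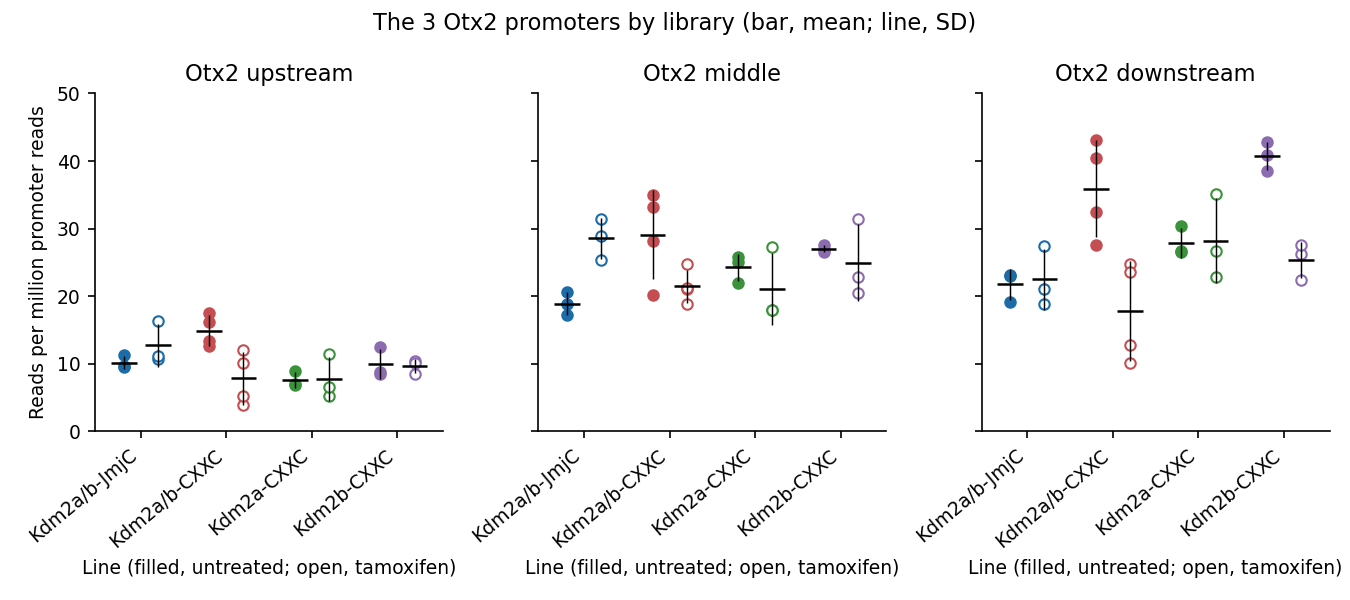
RPM at the upstream, middle and downstream Otx2 intervals in each library, with filled points for untreated and open points for tamoxifen-treated libraries, bars at the mean and lines of ±1 SD. In Kdm2a/b-CXXC, whose values chose the gene, the treated libraries lie below all untreated ones at the upstream and downstream intervals. At the middle interval they overlap with the untreated ones. In Kdm2b-CXXC the treated libraries lie below at the downstream interval alone.

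Whether removing the JmjC domains moved the promoters of the set was asked next. In Kdm2a/b-JmjC 0 of the 13 passed the threshold (an adjusted p from limma below 0.05 together with a change of more than 1.4-fold), where 0.0757% of the 17174 promoters tested did. edgeR's quasi-likelihood test also called 0. DESeq2 called 0 too, but gave no adjusted p to 12 of the 13, which therefore could not pass. With edgeR and DESeq2, 3 and 2 of the 13 had an unadjusted p under 0.05. With limma 3 were lower at an unadjusted p under 0.05 (Zic2, Pim2 and Pou3f1), against 20.3% of all promoters, and 0 were higher, against 0.262%. The median log2 fold change of the 13 was -0.20, near the -0.21 of all promoters, so the set moved with the bulk of promoters in this line.

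Zic2 had the lowest value in Kdm2a/b-JmjC. It went from 103.9, 104.3 and 121.9 calibrated reads to 79.0, 65.0 and 79.8, a log2 fold change of -0.56 (SE 0.19, unadjusted p = 0.0033, limma adjusted p = 0.0990). Pim2 went from 112.9, 125.1 and 122.8 to 98.2, 80.6 and 82.9 (log2 fold change -0.46, limma adjusted p = 0.136). Fgf5, with 71.1, 60.7 and 55.0 untreated and 53.4, 39.9 and 45.0 treated, and Sall2 downstream were the other promoters whose treated libraries all lay below the untreated ones. These 4 of 13 compare with 23.2% of all promoters whose groups were separated downwards, and Otx2 middle alone was separated upwards, against 0.908%. Relative to other promoters little was left. On the TMM scale the median of the 13 was 0.006, 0 passed the threshold (0% of all promoters did), and Zic2 and Pim2 had log2 fold changes of -0.35 and -0.25, still without overlap, as for 5.5% of promoters. At an unadjusted p under 0.05, 0 were lower (2.89% of promoters were) and 1, Otx2 middle, was higher (2.75%), and this one was also separated upwards (5.31%).

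In Kdm2a/b-CXXC, where both proteins lose CpG binding, 10 promoters remain after setting Otx2 aside. Of these 0 passed the threshold by limma, edgeR or DESeq2 on the calibrated scale, as did 0% of the 16413 promoters tested, and 0 did on the TMM scale, where 0.104% of all promoters did. edgeR and DESeq2 gave 1 and 0 of the 10 an unadjusted p under 0.05. Their median log2 fold change was 0.02, beside 0.09 for all promoters, and -0.06 on the TMM scale. Most members thus stayed near the bulk, and Pou3f1 is an example, with 107.7, 114.6, 114.3 and 103.6 calibrated reads untreated and 125.0, 115.4, 86.1 and 119.6 treated (log2 fold change 0.01). Fgf5, the marker of the formative step, had 45.4, 34.9, 45.9 and 39.7 untreated and 66.4, 38.2, 40.1 and 30.5 treated (0.03).

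Zic2 had the lowest log2 fold change of the 10. It had 87.9, 101.6, 117.1 and 103.6 calibrated reads untreated and 120.5, 71.3, 62.6 and 53.8 after tamoxifen. Treated replicate 1 was above all untreated libraries and the other treated ones were below them, so the groups overlapped. The log2 fold change was -0.47 (SE 0.20, unadjusted p = 0.0208, limma adjusted p = 0.996), and Zic2 was the 1 promoter of the 10 lower at an unadjusted p under 0.05, against 1.07% of all promoters. None of the 10 was higher, against 3.58%, and none was separated downwards in calibrated reads, against 0.597%. Leaving out 1 library at a time gave log2 fold changes from -0.71 to -0.32, and none passed the threshold. The value of -0.71, without treated replicate 1, had the lowest limma adjusted p, 0.153.

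In RPM, which sets aside the spike-in, Zic2 had 59.8, 65.0, 74.8 and 71.0 untreated and 59.2, 42.5, 41.7 and 40.5 after tamoxifen. All treated libraries were then below the untreated ones, replicate 1 only just. On the TMM scale its log2 fold change was -0.56 (SE 0.15, unadjusted p = 0.00026, limma adjusted p = 0.0960), which did not pass the threshold. It was the 1 of the 10 that was separated downwards, as were 2.58% of all promoters, and the 1 lower at an unadjusted p under 0.05, as were 4.97%. Its neighbour Zic5 had a TMM log2 fold change of -0.28 (limma adjusted p = 0.566), with 61.1, 61.1, 51.5 and 53.7 RPM untreated and 50.3, 43.5, 41.0 and 52.0 treated, which overlap.

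In Kdm2a-CXXC 0 of the 13 passed the threshold, beside 0% of 17727 promoters tested on the calibrated scale and 0% on the TMM scale, and edgeR and DESeq2 called 0, each with 1 member at an unadjusted p under 0.05. The median of the 13 was -0.18 in calibrated reads, the value of all promoters too, and -0.01 on the TMM scale. Pou3f1 alone was lower at an unadjusted p under 0.05, against 8% of all promoters. It had 142.3, 175.1 and 158.0 calibrated reads untreated and 91.5, 100.6 and 161.2 treated (log2 fold change -0.47, SE 0.20, limma adjusted p = 0.581), and treated replicate 3 lay among the untreated libraries. No member was separated between the groups in this line. Over all promoters 13.4% were separated downwards and 1.12% upwards in calibrated reads, and 5.78% and 5.36% on the TMM scale. The promoters of Cd24a and Grhl2 had overlapping groups in every line on both scales. For Cd24a the log2 fold changes in calibrated reads were -0.16 in this line, 0.03 in the double CXXC line, -0.17 in Kdm2b-CXXC and -0.13 in Kdm2a/b-JmjC, and for Grhl2 they were 0.10, -0.06, 0.28 and -0.17 in the same order.

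In Kdm2b-CXXC 0 of the 13 passed the threshold on the calibrated scale, beside 0% of 17930 promoters, and 0 on the TMM scale, beside 0.00558%. In calibrated reads 0 had an unadjusted p under 0.05 by limma, edgeR or DESeq2, and by limma only 0.151% of all promoters were lower and 0.519% higher at that level. On the TMM scale Otx2 downstream was the 1 that was lower at that level (4.14% of all promoters were) and Etv4 the 1 that was higher (3.6%). Etv4 went from 136.8, 139.6 and 137.0 RPM to 162.3, 160.6 and 167.4, a TMM log2 fold change of 0.24 (SE 0.09, unadjusted p = 0.0074, limma adjusted p = 0.492). It was the 1 member separated upwards, as were 6.12% of promoters. Otx2 downstream and Sall2 upstream were separated downwards, as were 6.3%. Sall2 upstream went from 9.0, 8.1 and 9.5 RPM to 4.4, 7.5 and 6.6 (TMM log2 fold change -0.54, SE 0.39, limma adjusted p = 0.796). The median of the 13 was -0.01 in calibrated reads, beside 0.10 for all promoters, and -0.10 on the TMM scale.

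**Figure D3:**
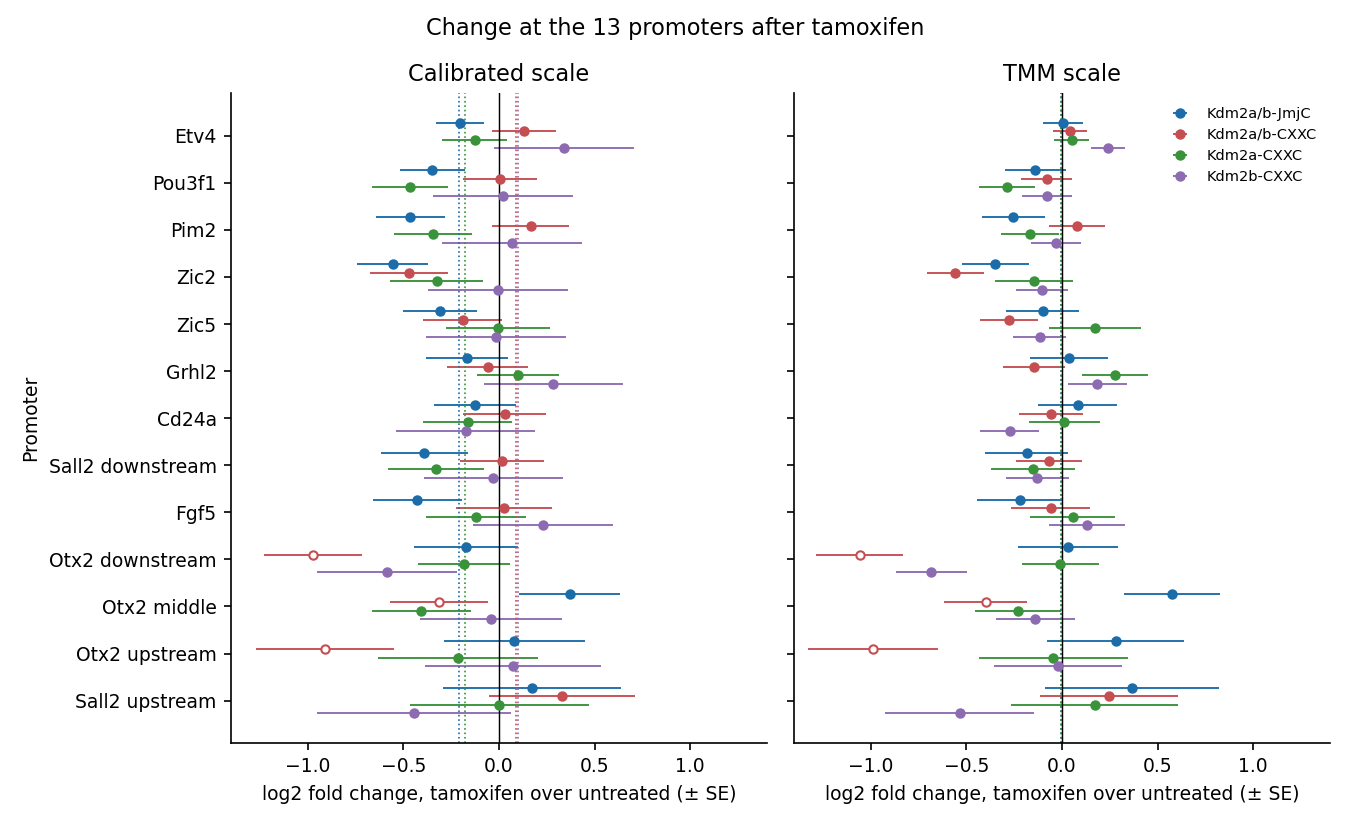
log2 fold change of tamoxifen over untreated (horizontal axis, lines of ±1 SE from limma) at the 13 promoters in each line, on the calibrated scale at the left and the TMM scale at the right. Dotted lines give the median of all promoters in each line, -0.21, 0.09, -0.18 and 0.10 on the calibrated scale, and open points mark Otx2 in Kdm2a/b-CXXC, which chose the gene.

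The difference of response between Kdm2a/b-CXXC and each other line was tested for the 10 promoters other than those of Otx2, as an interaction in a fit of all 26 libraries. None passed the threshold against Kdm2a/b-JmjC, Kdm2a-CXXC or Kdm2b-CXXC, where 0% of the 19621 promoters tested did in each case, and 0 of the 10 had an unadjusted p under 0.05. Over all promoters 1488, 997 and 279 had an unadjusted p under 0.05 in these comparisons. The difference nearest to the threshold was that of Pim2 against Kdm2a/b-JmjC, at 0.63 (SE 0.32, unadjusted p = 0.051, limma adjusted p = 0.658). For Zic2 the differences were 0.09 against Kdm2a/b-JmjC (SE 0.34), -0.15 against Kdm2a-CXXC (SE 0.34) and -0.47 against Kdm2b-CXXC (SE 0.34). On the TMM scale they were -0.21, -0.41 and -0.45 (SE 0.23 each), and 0 of the 10 had an unadjusted p under 0.05 there either. These errors leave room for differences in either direction, so a p above the threshold does not show equal responses.

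Levels before treatment set Zic2 and Zic5 apart in the Kdm2a-CXXC line. Zic2 had 25.1, 36.4 and 26.3 RPM there, against 55.0 to 74.8 RPM in the untreated libraries of the other lines. Zic5 had 20.6, 22.1 and 13.7 RPM, against 39.2 to 68.2. With Sall2 downstream (20.2, 27.1 and 29.5 RPM) they were the 3 of 13 whose untreated Kdm2a-CXXC libraries all lay below all untreated libraries of the other lines, as did 5.25% of 17110 promoters. At Zic2 and Zic5 the treated libraries of the lines were separated in the same way. The log2 ratios to the mean of the other lines were -1.13 for Zic2 and -1.60 for Zic5 in untreated cells.

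The low values of Zic2 and Zic5 were shared by their neighbours. Around Sall2 downstream, the 32 other promoters within 2 Mb had a median log2 ratio of 0.08 in untreated Kdm2a-CXXC cells. Of these 13 were below 0, and Sall2 downstream itself was at -0.66. Positions are distances from Zic2, negative before it. From Tgds, at -4.34 Mb, to the last promoter of chromosome 14 that was compared, at 1.72 Mb, the 36 promoters other than Zic2 and Zic5 all lay below the mean of the other lines in untreated Kdm2a-CXXC cells. This run was delimited after its values were seen. Its median log2 ratio was -1.03 (range -1.64 to -0.55), a linear ratio of 0.490. In the treated libraries, which did not delimit it, the median was -1.07 and all 36 were below 0. The other lines had medians of 0.17, 0.24 and 0.35 over the same promoters, each taken against a mean that includes Kdm2a-CXXC.

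Ahead of it lay an unbroken run of 77 promoters, from Cog3, at -46.7 Mb, to -7.38 Mb, all above 0 in untreated Kdm2a-CXXC cells. Their median log2 ratio was 1.11 (a linear ratio of 2.16), and 1.06 after tamoxifen, again with all 77 above 0. Otx2 and both Sall2 intervals lie on the same chromosome outside both runs. The genomic DNA libraries were not analysed here, so whether the number of copies of the chromosome's end differs in this line was not tested. Tamoxifen and untreated libraries of the line share these levels, and the log2 fold changes of Zic2 and Zic5 within it were -0.32 (SE 0.24, limma adjusted p = 0.647) and -0.0044 (SE 0.27, limma adjusted p = 0.995) in calibrated reads.

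**Figure D4:**
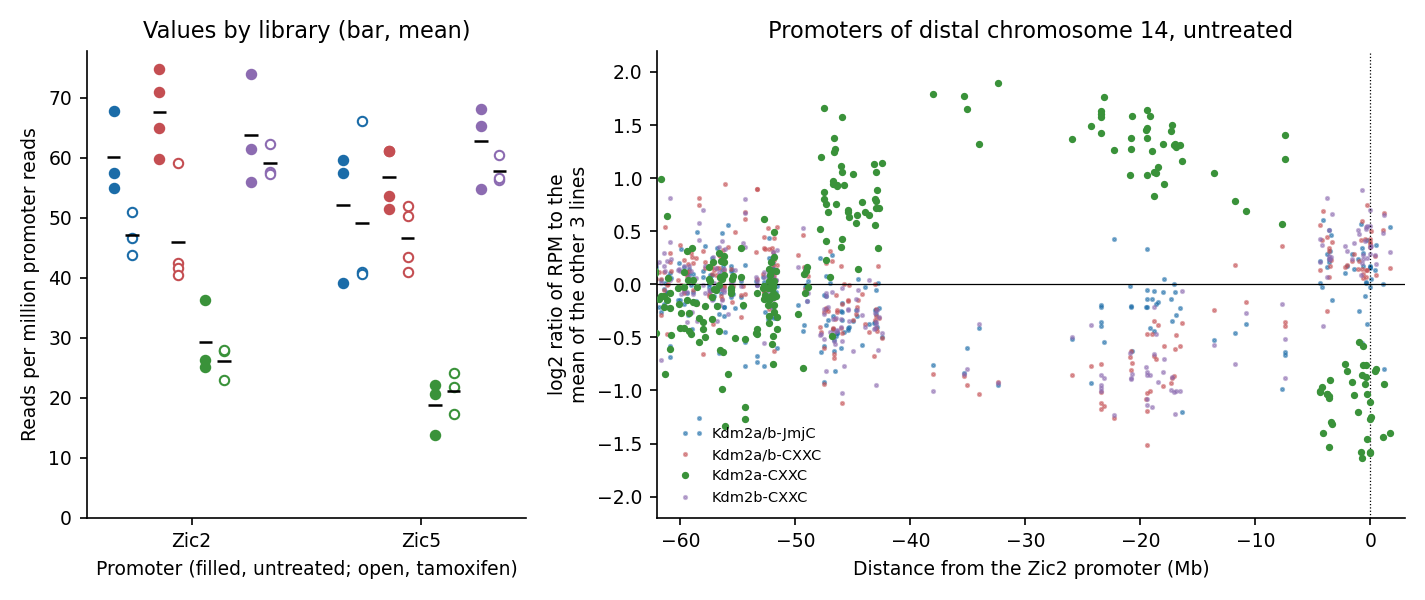
At the left, RPM of Zic2 and Zic5 in each library (filled, untreated; open, tamoxifen; bars, means; colours as in the legend at the right). At the right, the log2 ratio of untreated RPM to the mean of the other lines for each promoter of distal chromosome 14 against its distance from Zic2 in Mb, where Kdm2a-CXXC has a median of 1.11 over the run of 77 promoters and -1.03 over the 36 promoters around Zic2.

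Other genes of the transition were taken from a wider list of 20, of which 19 were in the tables, with 21 promoters tested in each line. None passed the threshold in any line on either scale. In calibrated reads and at an unadjusted p under 0.05, Kdm2a/b-JmjC had 2 lower and 0 higher (20.3% and 0.262% of all promoters were), Kdm2a/b-CXXC had 1 lower and 2 higher (1.07% and 3.58%), Kdm2a-CXXC had 3 lower and 0 higher (8% and 0.395%), and Kdm2b-CXXC had 0 of either kind (0.151% and 0.519%). The list's median log2 fold changes were -0.10, 0.05, -0.26 and 0.16 in that order of lines, beside -0.21, 0.09, -0.18 and 0.10 for all promoters. The genes with the smallest p were Tcf15, a bHLH factor of the epiblast (-0.48 in Kdm2a/b-JmjC, SE 0.17, limma adjusted p = 0.118), Cer1, a secreted antagonist of Nodal (1.09 in Kdm2a/b-CXXC, SE 0.46, limma adjusted p = 0.996), Dnmt3b, a de novo DNA methyltransferase (-0.46 in Kdm2a-CXXC, SE 0.21, limma adjusted p = 0.581) and Lin28b, an inhibitor of let-7 (0.60 in Kdm2b-CXXC, SE 0.41, limma adjusted p = 1.00).

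The naive list, the opposite end of the transition, held 14 genes, of which 13 were in the tables, with 14 promoters tested (13 in Kdm2a/b-CXXC) and 0 past the threshold in each line on both scales. Its medians were -0.19, 0.15, -0.15 and -0.09 in calibrated reads and 0.01, 0.06, 0.03 and -0.19 on the TMM scale, where the wider list had 0.09, -0.04, -0.08 and 0.06. In Kdm2a/b-JmjC 3 were lower and 0 higher at an unadjusted p under 0.05 in calibrated reads (20.3% and 0.262% of all promoters were). The smallest p was that of Stat3, which carries the LIF signal (-0.33, SE 0.12, limma adjusted p = 0.115). Kdm2a-CXXC had 0 of either kind (8% and 0.395% of all promoters), and the smallest p was that of Tcl1, a coactivator of AKT (-0.44, SE 0.24, limma adjusted p = 0.596). In Kdm2a/b-CXXC the naive promoters went both ways, with 6 of 13 below 0 in calibrated reads. At an unadjusted p under 0.05, 2 were lower and 1 higher in calibrated reads, against 1.07% and 3.58% of all promoters. On the TMM scale 4 were lower and 2 higher, against 4.97% and 4.75%. The lowest was Prdm14, a repressor that holds cells in the naive state, at -0.67 in calibrated reads (SE 0.23, limma adjusted p = 0.863) and -0.76 on the TMM scale (limma adjusted p = 0.0640). It went from 67.0 ± 3.83 to 43.5 ± 14.2 calibrated reads (SD, n = 4 each). Nanog was at -0.58 on the TMM scale (limma adjusted p = 0.0960), and Gbx2, a homeobox gene, was the highest at 0.35 (limma adjusted p = 0.257). In Kdm2b-CXXC 0 of the naive promoters were past an unadjusted p of 0.05 in calibrated reads (0.151% of all promoters were lower and 0.519% higher). On the TMM scale 5 of 14 were lower and 0 higher, against 4.14% and 3.6% of all promoters, with Prdm14 at -0.50 (limma adjusted p = 0.406).

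**Figure D5:**
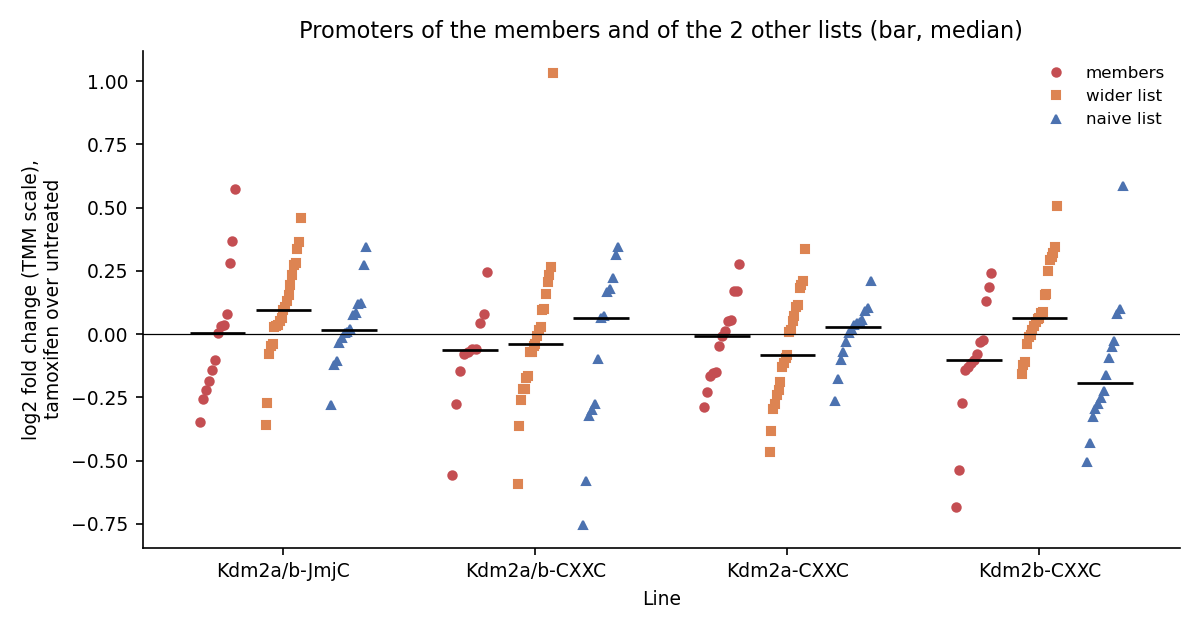
log2 fold change on the TMM scale (vertical axis) of each promoter of the 10 chosen genes (without Otx2 in Kdm2a/b-CXXC), of the wider list and of the naive list in each line, with bars at the medians. The medians lie between -0.19 (naive list, Kdm2b-CXXC) and 0.09 (wider list, Kdm2a/b-JmjC), and the points of the lists overlap in every line.

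The promoters whose relative accessibility varied most like that of Otx2 downstream were Tnk2, which encodes a tyrosine kinase, Mrps23, a protein of the mitochondrial ribosome, and Fn1, fibronectin. Their Pearson correlations with it were 0.89, 0.80 and 0.80, over 26 libraries and among 16029 promoters, of log2 TMM-scaled RPM after the mean of each line was subtracted. The points share treatment groups, and over the 18 libraries outside Kdm2a/b-CXXC the correlations were 0.69, 0.73 and 0.69. These 18 are part of the 26 that ranked the promoters, so they are no separate check. The 26 include the Kdm2a/b-CXXC libraries, whose values chose Otx2, so the correlations over all 26 rest in part on those values. Within the set the correlation was highest for Zic2 over all 26 libraries (0.50) and for Zic5 over the 18 outside Kdm2a/b-CXXC (0.54), where Cd24a (0.47) was also above Zic2 (0.31). Otx2 upstream had 0.43 over the 26 libraries and -0.04 over the 18, and Etv4 was lowest in both (-0.31 and -0.56). These values describe the libraries and carry no test.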

How the data were processed

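Per the labels and the study's methods, the authors mapped read pairs to joined mm10 and dm6 genomes (Bowtie 2), filtered them (SAMtools) and counted mouse reads in 400 bp promoter intervals. The submitters' notes also list MACS2, and versions are not given in the sources used here. Each deposited library column is a signal, mouse reads divided by a DESeq2 size factor from Drosophila reads. The authors' log2 fold changes, standard errors and p-values were not used, nor were the genomic DNA libraries.

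Reads were recovered from the step of each column (100% of values whole within 0.01, size factors 0.718 to 1.41), giving 1.49 to 3.03 M promoter reads per library. Within each line, limma 3.58.1 with a mean-variance trend was run on log2(calibrated reads + 1), which understates changes at low values, after edgeR 4.0.16 filterByExpr on the reads. P-values are two-sided, with Benjamini-Hochberg adjustment over all promoters tested, and a promoter was changed when its adjusted p was below 0.05 and its change exceeded 1.4-fold. Simulated data with 200 altered promoters were used to test the code. Alternatives were TMM and median-of-ratios scaling, edgeR, DESeq2 1.42.0, pseudocounts of 0.5 and 4, no filter, a replicate block and leaving out each library. R 4.3.3 and Python 3.11.15 were used. Between lines, levels are RPM, with a prior of 0.5 RPM for ratios along chromosome 14 and a minimum of 5 RPM for the promoters compared.

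By the naming rule, the text covers all members, plotted in every line, with the 3 promoters most like Otx2 and, per list and line, the gene with the smallest p. Nanog, Gbx2 and the genes that bound the runs on chromosome 14 were picked for naming once their values had been seen. The members and lists were chosen with earlier results of these data known.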

Additional observations from a re-analysis of the deposited data

Results flagged for a closer look

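Among the 26 groups of 4 libraries (13 promoters, untreated and tamoxifen-treated Kdm2a/b-CXXC), 2 held a library far from the others. At Sall2 downstream, untreated replicate 1 had 88.9 calibrated reads and the other untreated libraries had 55.8, 58.1 and 55.2, so that the gap to its nearest neighbour took up 0.913 of the group's range. At Pim2, untreated replicate 3 had 96.5 calibrated reads and the others had 80.0, 77.7 and 77.4, a share of 0.866. Chance flags about 1 in 20 such groups. Groups of 3 libraries were not examined in this way.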

How the results depend on the processing

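Leaving out the 3 Otx2 promoters in Kdm2a/b-CXXC, whose values there chose the gene, the count of 0 changed members per line was the same under every alternative run. Over all promoters, the 13 changed in Kdm2a/b-JmjC became 0 with TMM, 0 with median-of-ratios scaling, 114 with edgeR's quasi-likelihood test and 70 with a pseudocount of 4, and leaving out 1 library gave 0 to 607. Without treated replicate 1 it was 607, without untreated replicate 3 it was 59, without treated replicate 3 it was 3, and without untreated replicate 1 or 2 it was 0. In Kdm2a/b-CXXC the 0 became 17 with TMM and 17 with median-of-ratios scaling, and 0 to 8 without 1 library (8 without treated replicate 4, 5 without treated replicate 1). In Kdm2b-CXXC both scalings gave 1, and leaving out 1 library gave 0 in each case. In Kdm2a-CXXC the range was 0 to 43, the highest without treated replicate 3. The members' median of -0.20 in Kdm2a/b-JmjC became 0.0061 with TMM and 0.0082 with median-of-ratios scaling. That of -0.18 in Kdm2a-CXXC became -0.0082 and -0.0064. These scalings centre the median of all promoters near 0, and in these lines the members' median lay near that of all promoters. Leaving out 1 library gave members' medians of -0.32 to -0.12 (Kdm2a/b-JmjC), -0.10 to 0.11 (Kdm2a/b-CXXC), -0.25 to -0.15 (Kdm2a-CXXC) and -0.25 to 0.25 (Kdm2b-CXXC).

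Replicate numbers are shared between groups. Correlations between the deviations of same-numbered libraries were small (13 from -0.009 to 0.073, against -0.058 to 0.025 for 30 pairs with different numbers). In Kdm2a/b-JmjC they were 0.043, 0.059 and 0.073, against at most 0.002 for different numbers. A correlation over promoters cannot see a shift of a whole library. Calibrated totals ranked alike by number in Kdm2a-CXXC and Kdm2b-CXXC, and not in Kdm2a/b-JmjC or Kdm2a/b-CXXC. A pairing by number was thus not settled, and the main fits are unpaired. A replicate block gave Kdm2a/b-JmjC 62 changed promoters, Kdm2a-CXXC 188, Kdm2b-CXXC 5 and Kdm2a/b-CXXC 0, and left each line with 0 changed members.

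Setting aside Otx2 in Kdm2a/b-CXXC, the members' log2 fold changes changed sign in 40 of 392 values over 8 settings (15 of 49 each with TMM and median-of-ratios scaling, 5 of 49 each with edgeR and DESeq2, and 0 with the others) and in 49 of 314 values without 1 library. The number of these values past the threshold was 0. DESeq2 gave no adjusted p to 12 of the 13 members in Kdm2a/b-JmjC, so these could not be counted as changed there. With 7 to 32 reads per library at Otx2 upstream and 8 to 24 at Sall2 upstream, depth limits what could be seen there.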
